A study of Homo sapiens with 6 samples.

Results

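The genes examined here were the receptors of the epidermal growth factor (EGF) receptor family EGFR, ERBB2 and ERBB3, the ligand genes AREG, EREG, TGFA and HBEGF, and ERRFI1, the gene of an inhibitor of these receptors. They were listed by name, with no threshold on their values, but with earlier results of these data known. They make up 8 of the 56303 gene symbols in the count table. mRNA was sequenced in 6 libraries from cells labelled SW480, an established colorectal cancer cell line. In 3 libraries the cells carried a control short hairpin RNA (shCtrl, labelled WT for genotype), and in the other 3 a hairpin against the splicing factor RBM39 (shRBM39, labelled RBM39 knockdown). Both hairpins were delivered by lentivirus, and stable clonal lines were selected with puromycin and grown in medium with fetal bovine serum. Each group is thus a selected line, so differences between the lines that are not due to the hairpin target cannot be told apart from the knockdown, and the number of hairpins per target is not given in the sources used here.

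The receptors of this family are tyrosine kinases of the cell surface that act in pairs after a ligand is bound. EGFR is the receptor of amphiregulin (AREG), epiregulin (EREG), TGF-alpha (TGFA) and HB-EGF (HBEGF), ERBB2 binds none of these ligands and serves as the preferred partner, and ERBB3 has a weak kinase, binds neuregulins and couples the pair to PI3K. The ligands are made as membrane proteins and released by ADAM proteases, and the receptors feed the RAS-ERK cascade, whose output induces feedback genes. ERRFI1, also called MIG6, is one such induced gene, and its protein binds and blocks the active receptor kinase. In colorectal cancer the family is known as the target of anti-EGFR antibodies.

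The libraries held 18042924 to 20428901 counts. RBM39 itself was at 435 to 448 CPM (counts scaled to the size of each library, with TMM factors) in shCtrl and at 266 to 292 CPM in shRBM39, a log2 fold change (log2FC) of -0.67 ± 0.04 (SE, edgeR adjusted p = 1.24e-16). With calls made at an adjusted p below 0.05, 59.1% of the 18243 tested genes were called, 29.2% higher and 29.9% lower in shRBM39. The epithelial genes EPCAM, KRT8, KRT18, VIL1 and CDH1 were expressed in the 6 libraries, and KRT20 had at most 25 counts. The summed level of 7 colon epithelial markers was 10899 to 11655 CPM in shCtrl and 13880 to 14426 CPM in shRBM39. Most of that sum was KRT8, with means of 6924 and 9309 CPM, and KRT18, with 2940 and 3476 CPM. Of the 7 markers, 3 were called higher (KRT8, KRT18 and KRT20) and 3 lower (VIL1, CDH1 and CDX2). CDH1 had a log2FC of -0.39 and VIL1 of -0.09, and EPCAM was not called. CDX2, an intestinal transcription factor gene, fell from 21.7 to 4.95 CPM, a log2FC of -2.13 (edgeR adjusted p = 2.44e-20). Markers of other cell types, 8 in all, summed to 11.2 to 12.1 CPM in shCtrl and 17.2 to 20.9 CPM in shRBM39, with PTPRC at 0 counts and CD3E and COL3A1 at no more than 3 counts in any library. COL1A1, PECAM1 and VWF of that list were called higher, and their part in the results below was not tested. In bulk libraries, fewer cells with a transcript and less of it per cell cannot be told apart.

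Compared per gene length, the inhibitor and the receptor ERBB3 had the highest levels of the family in shCtrl, and EGFR the lowest. On the RPKM scale (reads scaled to exon length and to the reads counted in each library), ERRFI1 was at 25.5 ± 0.43, ERBB3 at 21.9 ± 0.773 and ERBB2 at 7.47 ± 0.149 (SD, n = 3) in shCtrl. Among the ligands, AREG was at 4.5 ± 0.594, TGFA at 3.99 ± 0.372, HBEGF at 1.32 ± 0.051 and EREG at 0.132 ± 0.0604 RPKM (SD, n = 3). EGFR came last with 0.0228 ± 0.0127 RPKM (SD, n = 3), a level above that of 15.9% of the 33685 genes with any count, against 93.5% for ERBB3 and 94.3% for ERRFI1. Among neighbours in this order, the ranges of AREG and TGFA overlapped, and no other pair overlapped. In shRBM39 the order changed at its top, with ERBB3 first at 14.7 ± 0.16 RPKM and ERRFI1 next at 8.69 ± 0.618 RPKM (SD, n = 3), and the ranges of ERRFI1 and ERBB2 overlapped. The 6 genes below them kept their places.

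**Figure D1:**
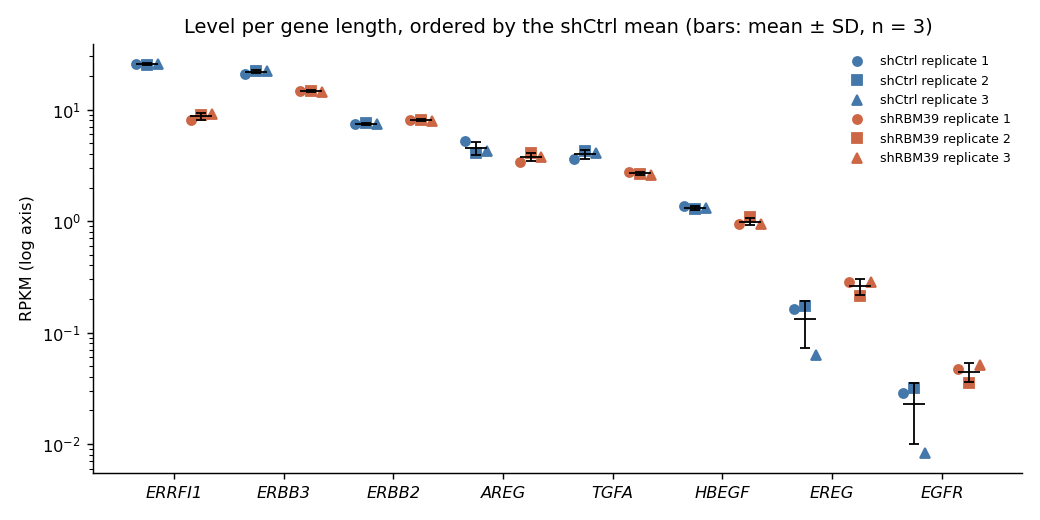
RPKM of the 8 genes on a log axis, with each library as a point (circle, square and triangle for replicates 1, 2 and 3, shCtrl in blue and shRBM39 in orange) and the mean ± SD in black (n = 3). ERRFI1 and ERBB3 lead in shCtrl at 25.5 and 21.9, and EREG and EGFR lie far below the other genes.

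The receptors moved in different directions. ERBB3 fell, ERBB2 rose by a smaller amount, and EGFR was close to the limit of detection. In CPM, ERBB3 (chromosome 12, 56079857 to 56103505, GRCh38) was at 176, 185 and 184 in shCtrl and at 134, 134 and 131 in shRBM39. Every shRBM39 library was below every shCtrl library. The log2FC of ERBB3 was -0.45 ± 0.04 (SE, edgeR adjusted p = 2.02e-12), a change of -26.8%. ERBB2 (chromosome 17, 39687914 to 39730426) was at 73.7, 75.1 and 73.1 CPM in shCtrl and at 87.3, 88.1 and 84.9 CPM in shRBM39. The groups did not overlap, and the difference was smaller than that of ERBB3. Its log2FC was 0.23 ± 0.04 (SE, edgeR adjusted p = 1.44e-05). The direction of ERBB2 held under each scaling tried, but its value shrank to 0.11 with library totals alone. Its call was lost when log2 RPKM was fitted in place of counts, at values of 0.09 and 0.11.

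EGFR (chromosome 7, 55019021 to 55211628) had 7, 8 and 2 counts in shCtrl and 12, 8 and 13 in shRBM39, against at least 1485 counts of ERBB2 in each library. The cells are SW480 by their labels, and their profile was not compared here with a reference profile of that line. It did not pass the filter on low counts and was not tested in the main comparison. Summed over the libraries, 17 counts stood against 33, a ratio of 2.13 with an exact 95% interval of 1.15 to 4.08 that covers counting error only. With no filter the log2 fold change of EGFR was 1.08 with an edgeR adjusted p of 0.0422. Without shCtrl replicate 3, which had the 2 counts, it was 0.69 with an adjusted p of 0.194. That run kept the filter on low counts, which EGFR passed there, so the runs differ in filter as well as in libraries. With the filter kept, EGFR was called without shCtrl replicate 1, shCtrl replicate 2 or shRBM39 replicate 2. It did not pass the filter without shRBM39 replicate 1 or 3. The call of EGFR thus rested on few counts and depended on the libraries and the filter used.

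Because both genes were read from the same library, the ratio of ERBB3 to ERBB2 does not depend on the scaling between libraries. On the RPKM scale this ratio was 2.85, 2.94 and 2.99 in shCtrl and 1.82, 1.81 and 1.84 in shRBM39. The mean ratio was 2.93 ± 0.0728 in shCtrl and 1.83 ± 0.0145 in shRBM39 (SD, n = 3). The log2 ratio differed by -0.68, far more than the spread in either group, and the exact two-sided permutation p was 0.1, the smallest that 3 against 3 libraries can give. As a share of the RPKM of the 3 receptors, ERBB3 went from 74.5% ± 0.499 to 64.5% ± 0.158 and ERBB2 from 25.5% ± 0.465 to 35.3% ± 0.194 (SD, n = 3). The share of EGFR stayed below the other receptors in both groups, at 0.0779% and 0.196%.

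Among the ligands TGFA fell and EREG rose, while AREG and HBEGF did not pass the test, with log2FC of -0.15 and -0.29. TGFA (chromosome 2, 70447280 to 70554193) was at 17.2, 20.3 and 19.5 CPM in shCtrl and at 14.4, 13.9 and 13.4 CPM in shRBM39. Its 3 shRBM39 values were close together and below all shCtrl values. The log2FC of TGFA was -0.45 ± 0.08 (SE, edgeR adjusted p = 4.72e-06), and it stayed between -0.51 and -0.40 when each library was left out in turn. HBEGF (chromosome 5, 140332843 to 140346631), whose product also binds ERBB4 and serves as the receptor of diphtheria toxin, was at 4.02, 3.67 and 3.74 CPM in shCtrl and at 2.96, 3.43 and 2.99 CPM in shRBM39. The groups of HBEGF did not overlap, as in 63.3% of all tested genes, but at 58 to 81 counts per library the test did not call it, with a log2FC of -0.29 ± 0.15 (SE, edgeR adjusted p = 0.0898). Under library totals alone HBEGF was called at -0.41 with an adjusted p of 0.0151.

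AREG and EREG, whose products bind the same receptor, are neighbours on chromosome 4. AREG (74445134 to 74455009) lies 56.4 kb beyond EREG (74365143 to 74388751) on the same strand, with the ligand gene EPGN 49.8 kb before EREG and the ligand gene BTC 289.7 kb beyond AREG. AREG had 167, 137 and 135 counts in shCtrl and 115, 120 and 125 in shRBM39, or 8.29, 6.45 and 6.64 CPM against 5.87, 6.97 and 6.45 CPM. The groups overlapped, with shCtrl replicate 1 above the rest, and the spread in shCtrl, a coefficient of variation of 14.1%, was above the 8.27% that counting error alone gives. The log2FC of AREG was -0.15 ± 0.12 (SE, edgeR adjusted p = 0.268), and it ranged from -0.22 to -0.02 when each library was left out. Under library totals alone AREG was called lower, at -0.27 with an adjusted p of 0.0387.

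EREG had 18, 20 and 7 counts in shCtrl and 33, 22 and 33 in shRBM39, or 0.893, 0.942 and 0.345 CPM against 1.68, 1.28 and 1.7 CPM. The groups did not overlap, and shCtrl replicate 3 was the lowest library, as it was for EGFR with 2 counts and for BTC with 1 count against 10 or 11 in the other libraries. The log2FC of EREG was 1.10 ± 0.28 (SE, edgeR adjusted p = 0.00121). Summed counts of 45 and 88 gave a ratio of 2.15 with an exact 95% counting interval of 1.48 to 3.15. The coefficient of variation of EREG in shCtrl was 45.7%, above the 25.8% that counting error alone gives, and it was 15.5% in shRBM39. The interval leaves out such spread between libraries. Without shCtrl replicate 3 the log2 fold change was 0.77 with an adjusted p of 0.0216. In RPKM, EREG remained a small part of the ligands, 1.32% ± 0.591 of the sum of the 4 in shCtrl and 3.41% ± 0.648 in shRBM39 (SD, n = 3). AREG made up 45.2% ± 4.57 and 48.7% ± 2.32 of that sum, and TGFA 40.2% ± 4.82 and 35.0% ± 2.18 (SD, n = 3).

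**Figure D2:**
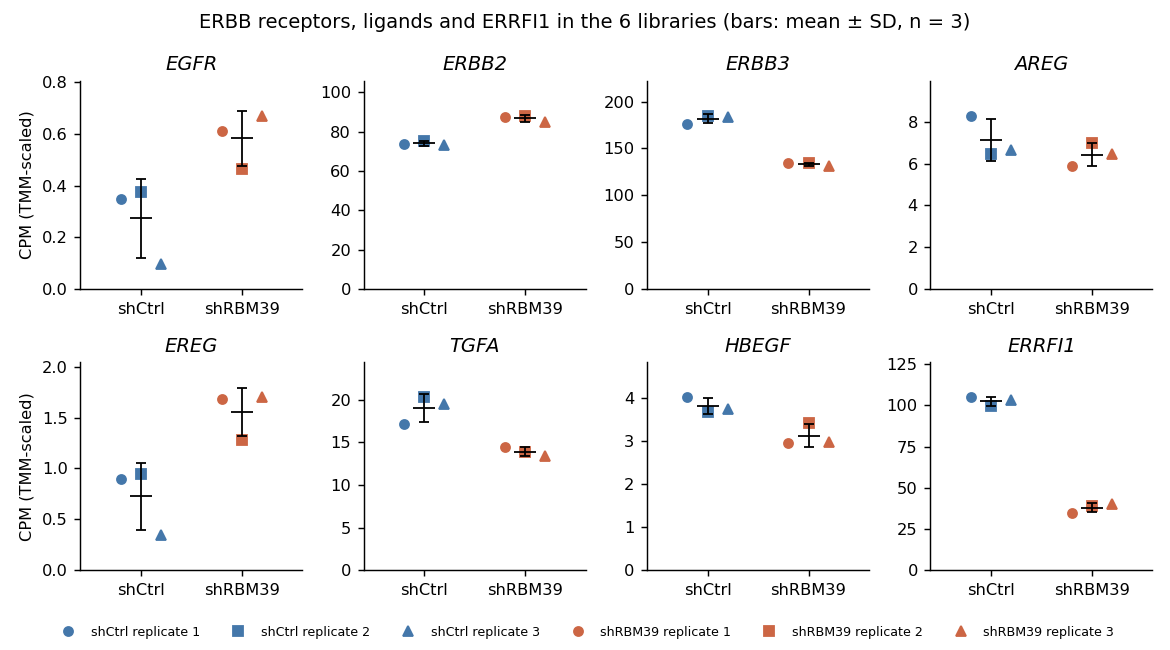
CPM of the 8 genes in the 6 libraries, with axes from 0, symbols for the replicates and the mean ± SD in black (n = 3). ERRFI1, ERBB3, TGFA and HBEGF are lower and ERBB2, EREG and EGFR higher in every shRBM39 library than in any shCtrl library. The values of AREG overlap, and EGFR stays below 1 CPM. HBEGF was not called, and EGFR was not tested in the main comparison.

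The sum of the 4 ligands on the RPKM scale was 10.3, 9.84 and 9.68 in shCtrl and 7.42, 8.0 and 7.57 in shRBM39. The sum of the 3 receptors was 28.4, 30.1 and 29.6 in shCtrl and 23.0, 22.9 and 22.4 in shRBM39. Both sums were lower in every shRBM39 library on this scale, which is set by library totals. Their ratio, which is free of that scale, was 0.339 ± 0.0205 in shCtrl and 0.336 ± 0.0129 in shRBM39 (SD, n = 3). The log2 ratio of ligands to receptors differed by -0.01, less than the spread within a group, with pairs of libraries from the groups differing by -0.17 to 0.09 and an exact permutation p of 0.8. The size of difference that 3 libraries per group could detect was not tested. EGFR, the receptor of these 4 ligands, made up 0.0779% of the receptor sum in shCtrl and 0.196% in shRBM39. The ratio thus sets the ligands almost entirely against ERBB3 and ERBB2, which are not their receptors. It says nothing on the balance of the ligands with EGFR.

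The largest change of the tested members was that of the inhibitor. ERRFI1 (chromosome 1, 8004404 to 8026308, minus strand) was at 105, 99.7 and 103 CPM in shCtrl and at 34.9, 39.3 and 40.0 CPM in shRBM39. The highest shRBM39 library was far below the lowest shCtrl library. The mean was 102 ± 2.51 CPM in shCtrl and 38.0 ± 2.77 CPM in shRBM39 (SD, n = 3), and the log2FC was -1.43 ± 0.05 (SE, edgeR adjusted p = 8.83e-23), a 2.69-fold lower level. Of all tested genes, 4.16% were called lower by at least 2-fold. Each library left out in turn gave between -1.47 and -1.36, and the call was kept in every alternative run. Relative to the sum of the 3 receptors in the same library, ERRFI1 stood at 0.869 ± 0.0394 in shCtrl and at 0.382 ± 0.0307 in shRBM39 (SD, n = 3), a difference of -1.19 in the log2 ratio with an exact permutation p of 0.1.

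In all, 7 of the 8 members were tested and 5 were called, with 2 higher (ERBB2 and EREG) and 3 lower (ERBB3, TGFA and ERRFI1) in shRBM39. The share called among all tested genes was 59.1%. By at least 2-fold, 2 of the 7 were called, with EREG higher and ERRFI1 lower, against 6.52% of all tested genes, of which 2.36% were higher and 4.16% lower. The CPM of the groups did not overlap for 6 of the 7, with 2 higher and 4 lower, against 63.3% of all tested genes, of which 31.0% were higher and 32.3% lower. The median log2 fold change of the 7 was -0.29, against -0.01 for all tested genes. Because the members were chosen with earlier results of these data known, these shares only describe the list.

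**Figure D3:**
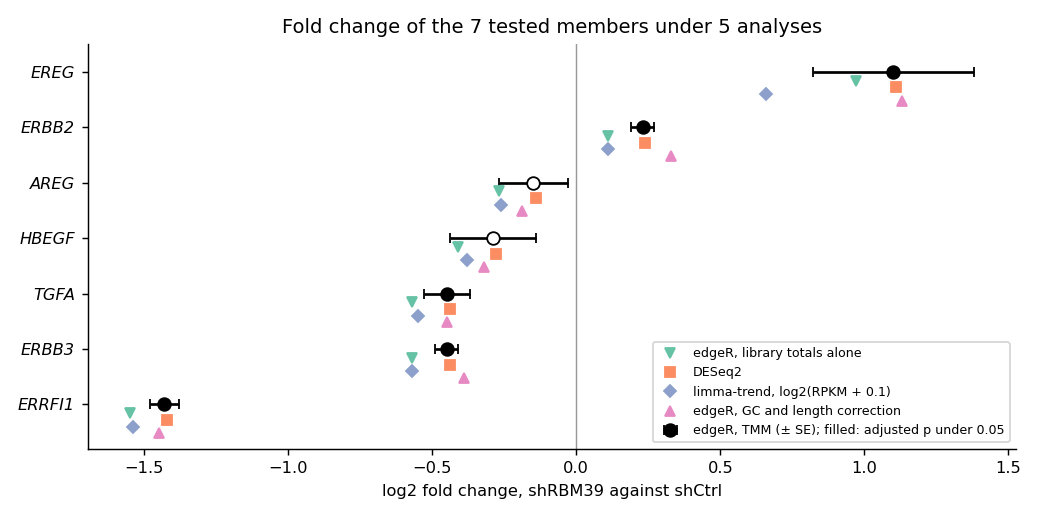
Log2 fold change of the 7 tested members, shRBM39 against shCtrl, with the main edgeR value ± its standard error (black circle, filled where the adjusted p was under 0.05) and 4 alternatives as coloured symbols. Every member keeps its side of 0 in the 5 analyses shown, and values scaled by library totals lie to the left.

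The promoters of ERRFI1, which changed most, and of the neighbouring ligand genes AREG and EREG are shown for reference. The stretches end just before the transcript start, read in the direction of transcription, and come from the RefSeq promoter table (GRCh38.p14), in which 7 of the 8 members were found and ERBB3 was not. Capitals mark matches on either strand to the motifs searched. These were TGANTCA for AP-1, the cyclic AMP response element (CRE) TGACGTCA and its short form, which is the first 5 of these letters. The letters TGATGCAA stood for a C/EBP-ATF site. For SP1 the motif was GGGCGG. The TATA box was read as TATAAA.
ERRFI1, chr1:8026310-8026559, minus strand: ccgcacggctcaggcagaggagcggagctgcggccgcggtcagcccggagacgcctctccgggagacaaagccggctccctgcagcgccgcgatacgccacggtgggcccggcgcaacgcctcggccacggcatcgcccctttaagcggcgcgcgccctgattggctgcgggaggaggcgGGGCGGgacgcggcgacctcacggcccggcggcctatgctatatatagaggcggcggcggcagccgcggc
AREG, chr4:74444886-74445133, plus strand: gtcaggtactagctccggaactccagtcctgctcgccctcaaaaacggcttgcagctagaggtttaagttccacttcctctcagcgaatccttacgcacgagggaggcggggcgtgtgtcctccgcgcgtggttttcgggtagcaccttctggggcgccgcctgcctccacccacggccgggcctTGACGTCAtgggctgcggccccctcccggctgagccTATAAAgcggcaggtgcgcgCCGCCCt
EREG, chr4:74364895-74365142, plus strand: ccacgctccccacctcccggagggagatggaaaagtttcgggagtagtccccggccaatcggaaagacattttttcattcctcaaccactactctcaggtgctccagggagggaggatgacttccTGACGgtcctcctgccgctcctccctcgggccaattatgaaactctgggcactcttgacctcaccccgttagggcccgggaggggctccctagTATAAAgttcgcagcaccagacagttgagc
AREG held the full CRE, which includes the short form on both strands, and EREG held 1 short form outside a full CRE. The exact letters TATAAA were found in AREG and EREG, and the SP1 letters in AREG and ERRFI1. Other TATA-like letters, such as tatatata in the ERRFI1 stretch, were not searched. Of 35116 promoter stretches of 250 bases, 1.65% held the full CRE, 21.2% the short form, 42.6% the SP1 letters and 10.7% the TATA box. AP-1 letters were in 6.57% of the stretches and C/EBP-ATF letters in 0.772%, and neither was in the 3 stretches shown. A match gives the letters only and says nothing on whether a factor binds there.

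Of the other receptor and ligand genes of the family, NRG4 had the highest level, and the rest had at most 43 counts in any library. Of 8 such genes, 4 could be tested, with 1 called higher, 1 called lower and 2 not called, and EPGN and NRG3 had 0 counts in the 6 libraries. The share called among all tested genes was 59.1%, with 29.2% higher and 29.9% lower. ERBB4, the fourth receptor, which binds neuregulins and HB-EGF, had 35, 43 and 37 counts in shCtrl and 10, 7 and 8 in shRBM39. All shRBM39 values were far below those of shCtrl, and the log2FC was -2.05 ± 0.28 (SE, edgeR adjusted p = 8.57e-08). NRG2, a neuregulin gene, had 12, 12 and 11 counts in shCtrl and 26, 18 and 23 in shRBM39. Its log2FC was 1.06 ± 0.29 (SE, edgeR adjusted p = 0.00187). NRG4, a neuregulin gene whose product binds ERBB4, had 86, 103 and 108 counts in shCtrl and 84, 72 and 79 in shRBM39, a mean of 0.997 RPKM in shCtrl that lies between those of HBEGF and EREG. It is named here for its level, after its values were seen. Its CPM overlapped between the groups, and its log2FC was -0.20 ± 0.13 (SE, edgeR adjusted p = 0.189). NRG1, the best known ERBB3 ligand gene, had 1 count in a single library, and EGF at most 2.

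Genes that release the ligands were mostly lower. Of 9 listed genes, 8 were tested, with 6 called lower, 1 called higher and 1 not called, and a median log2 fold change of -0.31. Among all tested genes, 29.9% were called lower and 29.2% higher, with a median of -0.01. ADAM9, a membrane protease gene, fell from 102 ± 0.676 to 60.6 ± 3.97 CPM (SD, n = 3), a log2FC of -0.74 (edgeR adjusted p = 4.69e-16). RHBDF1, an inactive rhomboid gene whose product handles the protease ADAM17, fell from 13.0 ± 0.823 to 7.24 ± 0.637 CPM (SD, n = 3), a log2FC of -0.84 (edgeR adjusted p = 1.4e-09). Of 16 genes of receptor turnover and restraint, 14 were tested, with 11 called lower and 1 higher and a median of -0.28. CBLB, which encodes a ubiquitin ligase of activated receptors, changed by -0.69 on the log2 scale (edgeR adjusted p = 2.9e-07), and SOCS5, a suppressor of cytokine signalling, by -0.61 on the log2 scale (edgeR adjusted p = 7.27e-05).

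The adaptor and RAS-ERK cascade genes showed no common direction. The 16 listed were all tested, 3 were called higher and 5 lower, and the median log2 fold change was 0.01. The shares among all tested genes were 29.2% called higher and 29.9% lower, with a median of -0.01. HRAS, a small GTPase gene, was higher by 0.38 on the log2 scale (edgeR adjusted p = 1.7e-07), and BRAF, a kinase gene of the cascade, lower by a log2FC of -0.39 (edgeR adjusted p = 2.31e-05).

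Genes known to be induced by ERK signalling, a list from which ERRFI1 was left out as a member, were mostly lower. Of 16 genes tested, 13 were called lower, 1 higher and 2 not called, and the median log2 fold change was -0.29. DUSP6, the phosphatase gene that restrains ERK, fell from 114 ± 1.9 to 55.9 ± 2.98 CPM and MYC from 344 ± 17.4 to 176 ± 4.18 CPM (SD, n = 3), with log2FC of -1.03 and -0.96 (edgeR adjusted p = 4.99e-20 and 1.46e-20). ETV5, EGR1 and SPRY2 changed by -0.70, -0.55 and -0.56 on the log2 scale (edgeR adjusted p = 8.36e-15, 1.9e-13 and 2.22e-10). FOSL1, an AP-1 subunit gene, went the other way, from 49.5 ± 2.73 to 79.8 ± 2.61 CPM (SD, n = 3), a log2FC of 0.69 (edgeR adjusted p = 9.29e-15). The number called in this list was 8 without shRBM39 replicate 1 and 9 in DESeq2, in place of 14, and the 6 genes named here were called in both. Groups of genes were described by their counts, with no test of a list, and 29.9% of all tested genes were called lower. The lists too were chosen with earlier results of these data known.

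**Figure D4:**
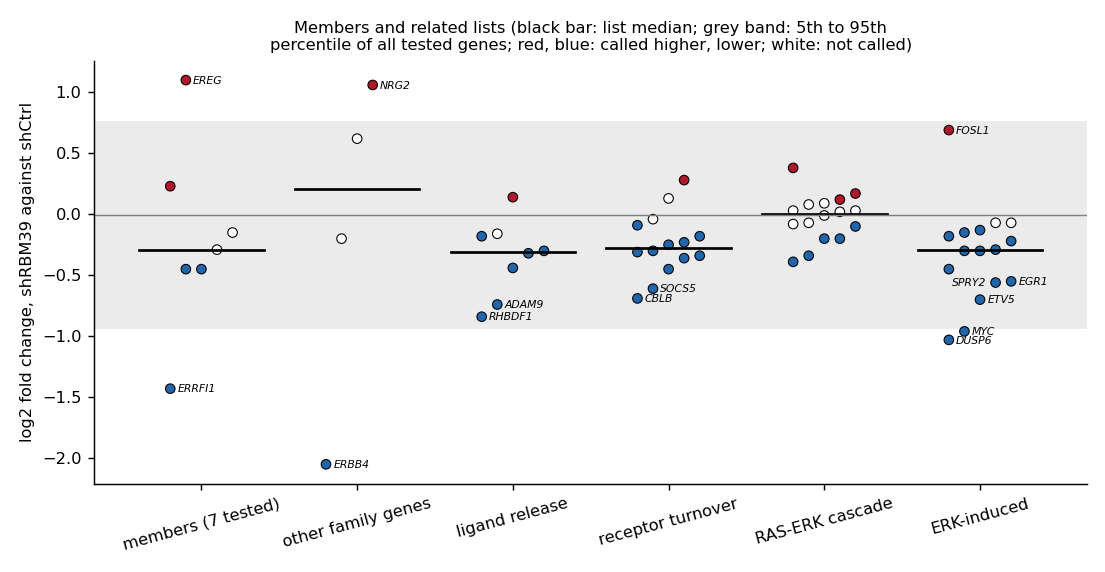
Log2 fold change of the tested members and of the tested genes of 5 related lists, shRBM39 against shCtrl, with red and blue points for genes called higher and lower, white points for genes not called, black bars for list medians and a grey band from -0.93 to 0.76, the 5th to 95th percentile of all tested genes. ERRFI1, EREG, ERBB4 and NRG2 lie outside the band together with DUSP6 and MYC.

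For the tested members other than ERBB2, the gene with the most similar pattern over the 6 libraries was sought among the 12058 genes whose mean reached 5 CPM, as the smallest Euclidean distance between centred log2 CPM values. For ERBB3 this was MLLT4, at a distance of 0.0326, and for TGFA it was FLCN, at 0.0657. HBEGF was nearest to LRIG2, a gene of the turnover list, at 0.0803, AREG to the pseudogene PIGCP1, which may share reads with its parent gene, at 0.0938, and ERRFI1 to FAM46C at 0.113. EREG was nearest to SNORD57, at 0.794, the largest of these distances. These distances are descriptions over 6 libraries, which share the same 2 groups.

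The authors' deposited splicing table, made with rMATS, held 1582 event records, of which 0 belonged to the 8 members. It may list only selected events, so the lack of a record does not show that splicing was unchanged. The splicing of the members was not analysed here. Of the 65 genes in the 5 related lists, 8 had a record. The USP8 record is a skipped exon (chromosome 15, 50484275 to 50484361) in the gene of a deubiquitinase of endocytosed receptors. Recomputed from the reads, group 1 of the table had inclusion levels of 0.607, 0.598 and 0.629, and those of group 2 were lower at 0.483, 0.492 and 0.505, with at least 110 reads behind each. The table has no key that ties its group numbers to the hairpins, so no direction is given.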

How the data were processed

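The authors deposited raw read counts per gene symbol for 6 libraries of stranded mRNA. Per the labels' processing notes, Trimmomatic 0.36, STAR 2.5.3a, featureCounts of Subread 1.5.1 and edgeR 3.12.1 were named, with GRCh38 as the build. The strand setting of the counting and the treatment of multi-mapped reads and molecular identifiers are not given in the sources used here. The authors also deposited RPKM values, and a recomputation from the counts differed by at most 1.2e-13 in relative terms. The deposited rMATS table holds inclusion and skipping reads of each event, 3 values per group, beside the authors' p-values and differences, which were not used. The columns named NC were taken as shCtrl, since no other control exists in the labels.

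Counts were tested with edgeR 4.0.16 in R 4.3.3 (filterByExpr, TMM, quasi-likelihood test, group as the only term, Benjamini-Hochberg over 18243 genes, threshold 0.05). CPM carry the TMM factors. Standard errors came from the fold change and its F statistic. On simulated counts with 200 changed genes among 18207, 84% of log2 changes of 0.5 and 100% of those of 1 were recovered, with 0.094% of unchanged genes called. The simulation gave every gene the same dispersion. Its changed genes were drawn only above a minimum mean count that EGFR, EREG, ERBB4 and NRG2 did not reach. Recovery at such low counts was therefore not tested.

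Members and lists were chosen with earlier results of these data known. Named list genes were those with an adjusted p under 0.05, an absolute log2 fold change of at least 0.5 and at least 1 CPM, at most 6 per list, or else the 2 with the largest change. Counting intervals cover counting error only. Replicates are separate samples by their labels and paper, described as replicate experiments of a line, so p-values measure the spread between them. A few results on single genes are not reported here. The RPKM of a gene depends on its merged exon length, which includes exons that these cells may not use.

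Alternatives were DESeq2 1.42.0, scaling by library totals alone or by the upper quartile, no filter, a minimum of 10 counts in every library, limma-trend (limma 3.58.1) on log2(RPKM + 1) and log2(RPKM + 0.1), a correction for GC content and length (99.9% of tested genes with a GC value), the replicate number as a block, with and without that correction, each library left out, a stricter threshold of 0.01 and the glmTreat test against a log2FC of 0.5.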

Additional observations from a re-analysis of the deposited data

How the results depend on the processing

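The 5 calls among the members held under DESeq2, library totals alone, upper-quartile scaling, the fit without a filter, the correction for GC content and length, an adjusted p under 0.01 and each library left out. With at least 10 counts in every library EREG was not tested, and the other 4 were called. ERBB2 lost its call on log2(RPKM + 1) and log2(RPKM + 0.1), at 0.09 and 0.11. HBEGF gained a call there, at -0.22 and -0.38, and under library totals alone, at -0.41, where AREG was also called, at -0.27. Library totals moved the median of all genes from -0.01 to -0.14. Against a log2 fold change of 0.5, 2 members stayed called (EREG and ERRFI1), while ERBB2 at 0.23, ERBB3 at -0.45 and TGFA at -0.45 lost their calls because a larger difference is asked for.

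With that test, calls were 1 of the other family genes, 2 for ligand release, 4 of the ERK-induced genes and 0 for receptor turnover and for the RAS-ERK cascade, in edgeR's glmTreat, where 1 and 0 genes had an unadjusted p under 0.05. The main edgeR test called 12 and 8 of them. At least 10 counts in every library left 1 call in the other family genes. The RAS-ERK cascade had 5 calls under DESeq2 and 5 at an adjusted p under 0.01, against 8, and the ERK-induced genes 9 under DESeq2, against 14.

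With each library left out, 5 to 6 members were called. The sixth was EGFR, called without shCtrl replicate 1, shCtrl replicate 2 or shRBM39 replicate 2. The range was 2 to 2 for the other family genes, 6 to 7 for ligand release, 11 to 12 for turnover, 6 to 8 for the cascade and 8 to 12 for ERK-induced genes. The fold change ranged from 0.22 to 0.25 for ERBB2, -0.47 to -0.44 for ERBB3, -0.22 to -0.02 for AREG, 0.77 to 1.33 for EREG, -0.51 to -0.40 for TGFA, -0.35 to -0.24 for HBEGF and -1.47 to -1.36 for ERRFI1. The differences in log2 ratio were -0.70 to -0.66 for ERBB3 to ERBB2, -0.04 to 0.04 for ligands to receptors and -1.24 to -1.12 for ERRFI1 to receptors.

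Libraries with the same replicate number did not deviate together, with correlations of 0.00583, -0.0477 and 0.0371. The values thus showed no pairing by number, but they cannot tell whether libraries with the same number were prepared together. With the replicate number as a block, 5 members were called, ERRFI1 was at -1.43, ERBB3 at -0.45, TGFA at -0.45, ERBB2 at 0.23 and EREG at 1.10, and no call of a member changed. Depth limits EGFR and EREG most, with 17 and 33 counts of EGFR and 45 and 88 of EREG in shCtrl and shRBM39.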
